A study of Mus musculus with 12 samples.

Results

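Adipose stromal progenitors are the fibroblast-like cells of fat from which new adipocytes arise. RNA of 10 genes that mark these cells was followed in epididymal white adipose tissue (eWAT) of mice fed a high fat diet (HFD): Pdgfra, Pdgfrb, Pi16, Dpp4, Cd55, Dpt, Fap, Thy1, Cd34 and Ly6a. The genes were chosen by symbol as a set of commonly used markers, with earlier results of these data known. All 10 were found among the 49315 genes of the count table, and all 10 were among the 18702 genes that passed the filter on low counts. The series holds 12 RNA-seq libraries in 4 groups of 3. KO mice, of genotype miR-181a2b2-/-, lack the locus of the microRNAs Mir181a-2 and Mir181b-2 in every cell, and flox mice, of genotype miR-181a2b2flox/flox, carry the floxed locus and served as controls. Both genotypes received a diet with 60% fat for 12 weeks and a weekly intraperitoneal injection of either vehicle or methotrexate (MTX) at 1 mg/kg, so that no group was on a normal diet or without injections. The study's methods describe male, age-matched littermates, and the age is not given in the sources used here. The labels number the samples without naming animals, so that p-values measure the spread between these libraries. The study asked how MTX and the miR-181 locus act on inflammation, and the 4 groups allow each genotype and each treatment to be compared and the interaction of both to be tested.

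In adipose tissue, progenitors that carry the receptor PDGFRα on their surface lie along the vessels and in a connective tissue layer around the organ. Cells of that layer, the interstitial progenitors, carry DPP4, PI16 and CD55, and are held to give rise to the committed preadipocytes that line the capillaries. PDGF ligands released by endothelium and macrophages act on both PDGF receptors and favour proliferation and matrix production over adipogenesis. No single gene is private to these cells: Pdgfrb is also a gene of mural cells, Cd34 and Ly6a of endothelium, Thy1 and Dpp4 of T cells, and Dpp4 of several epithelia. In RNA of a whole tissue, fewer cells of a type and less RNA per cell cannot be told apart.

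The sequences shown first are those of the microRNAs that the KO mice lack and of the places in the progenitor genes that match them. The main mature products of the locus on chromosome 2 share 1 seed, bases 2 to 8 of the microRNA, which is in capitals (RefSeq, GRCm38.p6):
mmu-miR-181a-5p: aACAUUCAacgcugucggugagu
mmu-miR-181b-5p: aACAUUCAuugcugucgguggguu
The complement of this seed in a messenger RNA reads TGAATGT. The longest annotated 3′ UTR of each gene was searched for these 7 letters on the sense strand. Of the 10 genes, 3 held 1 match each and 7 held none. The matches are in capitals within 27 bases of the GRCm38 reference, at chr5:75197977-75198003 on the plus strand for Pdgfra, chr1:194960646-194960672 on the plus strand for Cd34 and chr15:74994908-74994934 on the minus strand for Ly6a:
Pdgfra: taactgttgcactttTGAATGTccaaa
Cd34: ttgttcacctgttccTGAATGTctgtc
Ly6a: ttcccacatgtatccTGAATGTccccc
Among tested genes with a 3′ UTR within 20% of the same length, 32.7% held the match at the length of Pdgfra (3115 bases), 18.9% at that of Cd34 (1485 bases) and 4.33% at that of Ly6a (385 bases). A match is a string of letters and was not tested as a target site. The genes lie on different chromosomes, except that Dpp4 (chr2:62330073-62412231, minus strand) and Fap (chr2:62500943-62574075, minus strand), a pair of related serine proteases, neighbour each other, and that Dpt (chr1:164796644-164824266, plus strand), Cd55 (chr1:130439027-130462744, minus strand) and Cd34 (chr1:194938819-194961279, plus strand) share a chromosome. Pdgfra lies at chr5:75152292-75198215 on the plus strand, Pi16 at chr17:29317680-29330593 on the plus strand, Thy1 at chr9:44043384-44048579 on the plus strand and Ly6a at chr15:74994877-74998031 on the minus strand, all in GRCm38.

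Each library held between 19495310 and 23976469 counts, with a median of 21824170. The deposited counts carry no normalization, and CPM, counts relative to library depth, are given here after TMM scaling. The precursors of the deleted microRNAs were at 0 in 11 libraries, and Mir181a-2 had 2 counts in the 12th, flox MTX replicate 4, so the deletion could not be checked from these counts. All 12 adipocyte markers were above 3 counts in every library, and their summed level ran from 10888 to 48242 CPM of all counts. The 3 flox vehicle libraries stood apart by RNA of the epididymis, the organ next to this fat depot: 16 epididymal genes summed to 4822, 14109 and 1565 CPM in replicates 1, 3 and 4. Crisp1, a sperm-coating protein of the epididymis, alone had 86439, 233923 and 25221 counts. Outside this group the sum was 449 CPM in flox MTX replicate 1 and ran from 1.68 to 20.4 CPM in the remaining 8 libraries. Genes of testis germ cells summed to between 207 and 593 CPM in the flox vehicle libraries and to at most 12.2 CPM elsewhere. This difference coincides with the group, so that the flox vehicle group and this admixture cannot be told apart in any comparison that uses it. Without any one of these libraries the group has 2 left, both with the same admixture.

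Per length of transcript, on the FPKM scale (CPM per kilobase of annotated exons), Dpt was the most abundant member, with a median of 213 FPKM over the 12 libraries, followed by Ly6a with 109 FPKM. Cd34 (17.4 FPKM), Pdgfrb (16.5 FPKM) and Thy1 (13.9 FPKM) had medians close to each other, and so had Pi16 (9.55 FPKM) and Cd55 (9.26 FPKM). Pdgfra (6.50 FPKM), Dpp4 (5.36 FPKM) and Fap (2.26 FPKM) were the least abundant. The span between the highest and the lowest library was widest for Pi16, at 12.9-fold, followed by Pdgfra at 6.54-fold, and narrowest for Cd34 and Ly6a, at 2.86-fold each. The flox vehicle group had the lowest mean CPM of the 4 groups for 9 of the 10 members and the highest for the 10th, Dpp4. When the groups were ordered by mean CPM, 23 of the 30 pairs of neighbouring groups overlapped in their libraries. The same count is not given here over all genes tested, so it describes these members and does not set them apart. The 7 pairs that did not were flox MTX above flox vehicle for Fap, Thy1 and Cd34, KO MTX above flox MTX for Pdgfrb and Ly6a, KO vehicle above KO MTX for Ly6a, and flox MTX above KO vehicle for Dpp4.

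**Figure D1:**
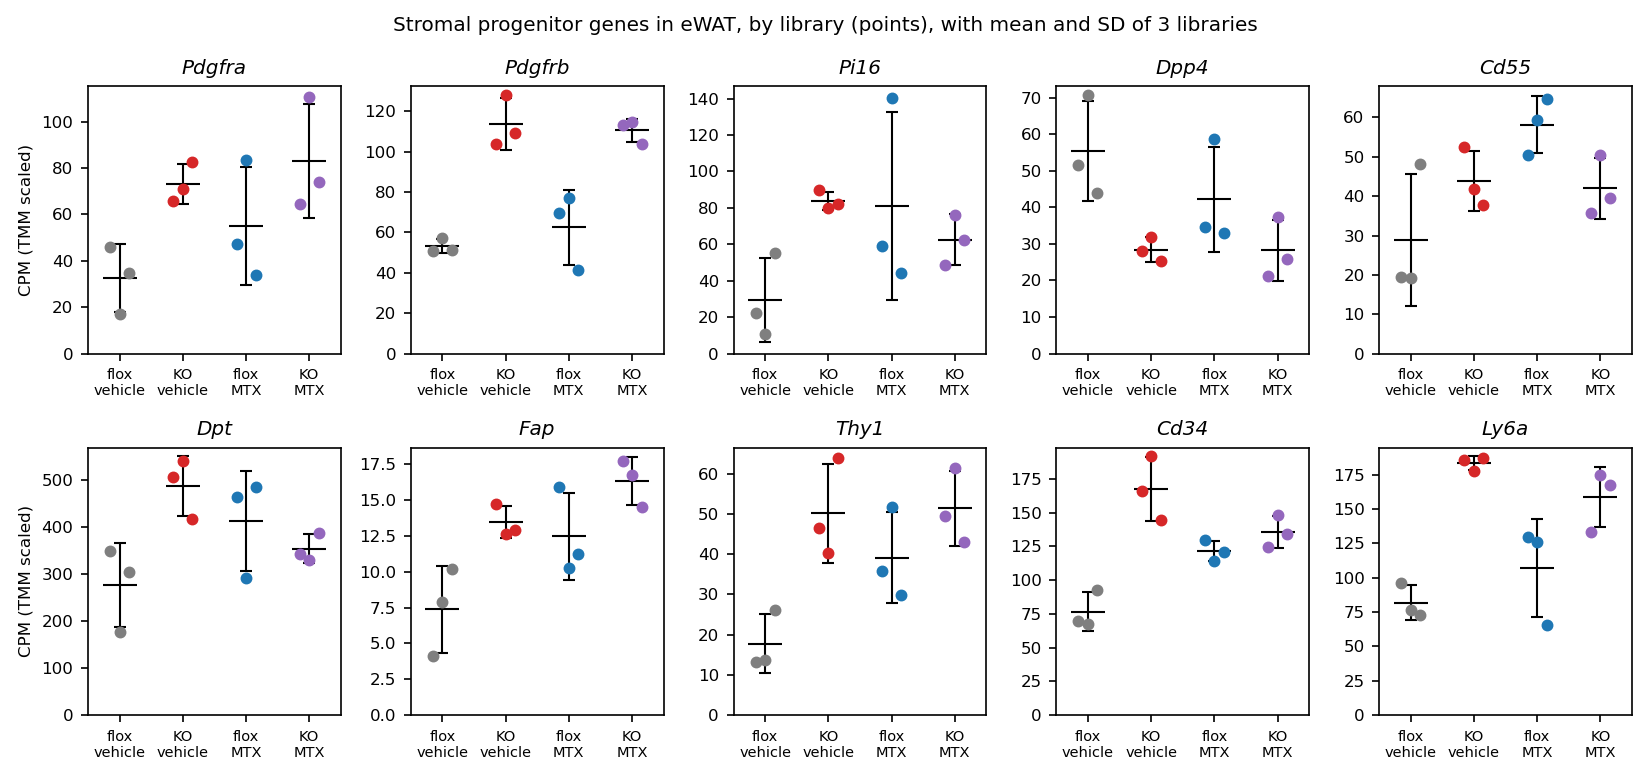
Level of each progenitor gene in CPM (TMM scaled, linear axes from 0) in the 4 groups. Points are libraries, bars the mean and SD of 3 libraries; the flox vehicle mean is lowest for 9 genes and highest for Dpp4.

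The first comparison asked how the progenitor genes differ between KO and flox mice that received vehicle. RNA of 8 of the 10 genes was higher in the KO libraries, by 1.77-fold (Dpt) to 2.84-fold (Pi16), and RNA of 1, Dpp4, was lower, by 1.95-fold. Only Cd55 was not called. Calls needed a fold change of 1.5 or more and, in edgeR's quasi-likelihood test, an adjusted p under 0.1 (Benjamini-Hochberg over all genes). Over all genes tested, 31.7% were called in this comparison, 13.9% higher and 17.8% lower. The 9 called genes were also those whose KO and flox libraries did not overlap, 8 of them higher and 1 lower, where 22.8% of all genes tested were higher and 25.3% lower without overlap. The median log2 fold change was 1.11 for the 10 members and -0.06 for all genes tested. Because the set was chosen with earlier results of these data known, these shares and medians do not test the set against all genes. With 3 libraries against 3, an exact permutation test, two-sided, cannot go below 0.1, the value it gave for each of these 9 genes.

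Both PDGF receptors were higher in KO mice. Pdgfrb, the receptor for PDGF-BB and PDGF-DD, had 50.9, 57.3 and 51.4 CPM in the flox and 104, 128 and 109 CPM in the KO libraries. Every KO library had more than any flox library, and the flox libraries differed little among themselves. This is a log2 fold change of 1.10 ± 0.20 (SE), with an edgeR adjusted p of 0.0039. Pdgfra binds PDGF-AA, PDGF-BB and PDGF-CC and defines the progenitor lineage. It had 46.0, 16.9 and 34.8 CPM in flox and 65.8, 70.8 and 82.8 CPM in KO libraries. The groups did not overlap, but the flox libraries were spread widely, with replicate 3 lowest. Its log2 fold change was 1.17 ± 0.38 (edgeR adjusted p = 0.0419). This call was lost without flox vehicle replicate 3, where it was 0.86 (edgeR adjusted p = 0.115), without KO vehicle replicate 3, where it was 1.08 (edgeR adjusted p = 0.115), and with the replicate number as a block, where it was 1.04 (edgeR adjusted p = 0.142).

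Of the ligands, Pdgfb had the lowest adjusted p. It had 19, 28.9 and 24.3 CPM in flox and 51.4, 67.6 and 59.8 CPM in KO libraries, a log2 fold change of 1.31 ± 0.20 (edgeR adjusted p = 0.00284). Pdgfd rose as well, with 5.51, 6.69 and 8.50 CPM in flox and 12.9, 16.9 and 12.7 CPM in KO libraries (log2 fold change 1.04, edgeR adjusted p = 0.0184). Pdgfrl, a receptor-like gene whose product is not a ligand, was called higher on few reads, at 1.27 ± 0.89 CPM in flox and 3.77 ± 1.22 CPM in KO libraries (SD, n = 3). Pdgfa reached an adjusted p of 0.051 in edgeR with a log2 fold change of 0.41, under the fold limit, and Pdgfc had a log2 fold change of -0.32 (edgeR adjusted p = 0.219). Of the ligands whose RNA rose, PDGF-B acts on both PDGF receptors and PDGF-D on PDGFRβ. A link between the RNA of ligands and receptors was not tested. Endothelium and macrophages, which are known sources of PDGF-B, differed too: 10 of 12 endothelial and 12 of 12 macrophage markers were called higher. Their part in these values was not tested.

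Of the 3 genes of interstitial progenitors, Pi16 was called higher and Dpp4 lower. Cd55 had a positive log2 fold change and was not called. Pi16, a secreted peptidase inhibitor that marks these cells, had 22.5, 10.9 and 55.1 CPM in flox and 89.6, 79.8 and 81.9 CPM in KO libraries. The KO libraries lay close together and above the flox libraries, which were spread widely. For Pi16 the log2 fold change was 1.51 ± 0.53 (edgeR adjusted p = 0.0556), and it lost the call without flox vehicle replicate 1 (1.35, edgeR adjusted p = 0.154), flox vehicle replicate 3 (1.11, edgeR adjusted p = 0.135), KO vehicle replicate 1 (1.48, edgeR adjusted p = 0.106) or KO vehicle replicate 3 (1.53, edgeR adjusted p = 0.110), and with the replicate block (1.64, edgeR adjusted p = 0.110). Dpp4, a membrane peptidase that cleaves incretins and chemokines, had 51.5, 70.6 and 44.0 CPM in flox and 28.1, 32.0 and 25.3 CPM in KO libraries. It was the only member with lower RNA in KO mice, in all 3 libraries. Its log2 fold change was -0.96 ± 0.27 (edgeR adjusted p = 0.0225).

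Within the flox vehicle group, Dpp4 was highest in replicate 3, lower in replicate 1 and lowest in replicate 4, the same order as the summed epididymal genes given above. Replicates 1, 2 and 4 of the flox MTX group had 34.7, 58.8 and 33.1 CPM of Dpp4. Their epididymal sums were 449, 5.45 and 20.4 CPM, all far under those of flox vehicle. Without flox vehicle replicate 3 the log2 fold change of Dpp4 was -0.75 (edgeR adjusted p = 0.0871), and without replicate 4 it was -1.09 (edgeR adjusted p = 0.0180). The admixture coincides with the flox vehicle group, so the part of epididymal RNA in this difference cannot be told apart and was not tested. Cd55, which protects cells from complement, had 19.4, 19.1 and 48.2 CPM in flox and 52.5, 41.7 and 37.7 CPM in KO libraries, and the groups overlapped through flox vehicle replicate 4. Its log2 fold change was 0.61 ± 0.32 (edgeR adjusted p = 0.177), and 1.2 (edgeR adjusted p = 0.00262) without that library. Cd55b, a close copy of Cd55, had 20, 91 and 29 counts in the flox vehicle libraries and at most 5 elsewhere, against at least 447 counts of Cd55 in every library, so reads shared between the copies leave the value of Cd55 uncertain.

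The promoters of Cd34, the member with the lowest adjusted p among those higher in KO mice, and of Dpp4, the member that was lower, are shown for comparison. Both are 300 bases of RefSeq's GRCm38.p6 table, from 250 bases before the transcript start to 50 bases after, for Cd34 at chr1:194938571-194938870 on the plus strand and for Dpp4 at chr2:62412182-62412481 on the minus strand. Capitals mark the letters TATAAA, and a match to such letters was not tested as a promoter element. TATAAA, the motif of the TATA box, was searched on both strands together with the GC box (GGGCGG) and the CCAAT box (CCAAT):
Cd34: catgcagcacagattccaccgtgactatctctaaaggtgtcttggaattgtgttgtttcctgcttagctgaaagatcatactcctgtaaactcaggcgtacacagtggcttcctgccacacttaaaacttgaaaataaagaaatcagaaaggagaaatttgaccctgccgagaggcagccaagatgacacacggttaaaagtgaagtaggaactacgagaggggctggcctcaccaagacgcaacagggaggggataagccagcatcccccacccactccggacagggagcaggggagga
Dpp4: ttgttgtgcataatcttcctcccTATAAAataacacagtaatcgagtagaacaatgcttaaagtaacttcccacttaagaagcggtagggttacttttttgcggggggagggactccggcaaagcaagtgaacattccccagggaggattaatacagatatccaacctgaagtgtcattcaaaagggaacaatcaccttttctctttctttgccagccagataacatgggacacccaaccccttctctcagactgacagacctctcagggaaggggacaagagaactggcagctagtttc
None of the 3 motifs was found for Cd34, and the TATAAA of Dpp4 begins at position -227 from the start. A promoter was in the table for 6 of the 10 members. In the others of these 6, TATAAA began at position 13 after the start of Dpt, CCAAT at -64 of Pi16 and 2 GC boxes on the opposite strand at -77 and -7 of Cd55, and Pdgfra held none. Of 32851 promoters of this length, 13.6% held TATAAA, 35.7% GGGCGG and 37.4% CCAAT, and none of the 3 was held by more than 2 of the 6 members.

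Dpt, which encodes the matrix protein dermatopontin and is the most abundant member, had 348, 176 and 304 CPM in flox and 505, 539 and 417 CPM in KO libraries. All KO libraries lay above the flox libraries. The log2 fold change was 0.82 ± 0.26 (edgeR adjusted p = 0.0382), and it lost the call without flox vehicle replicate 3 (0.58, edgeR adjusted p = 0.107) or KO vehicle replicate 2 (0.75, edgeR adjusted p = 0.102). Fap, the surface protease of activated fibroblasts, was low throughout, with 4.12, 7.87 and 10.2 CPM in flox and 14.7, 12.7 and 12.9 CPM in KO libraries. The KO libraries were higher without overlap, by a log2 fold change of 0.86 ± 0.29 (edgeR adjusted p = 0.0446). Without flox vehicle replicate 1 it was 0.58 (edgeR adjusted p = 0.0983), under the fold limit, and without KO vehicle replicate 1 it was 0.82 (edgeR adjusted p = 0.1 after rounding, above the limit).

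The 3 surface glycoproteins were all higher in KO mice. Thy1, a GPI-anchored protein of fibroblasts and T cells, had 13.3, 13.8 and 26.1 CPM in flox and 46.5, 40.2 and 63.9 CPM in KO libraries. Its log2 fold change of 1.5 ± 0.30 (edgeR adjusted p = 0.00514) came with 2 of 12 T cell markers called higher, and the T cell list summed to between 20.8 and 31.1 CPM in flox and between 31.9 and 50.9 CPM in KO libraries, with all 12 markers above 3 counts in each. Cd34, a sialomucin, had 69.9, 67.1 and 92.9 CPM in flox and 166, 192 and 145 CPM in KO libraries. It had the lowest adjusted p of the members, with a log2 fold change of 1.13 ± 0.16 (edgeR adjusted p = 0.00276). Ly6a, which encodes the stem cell antigen SCA-1, had 96.1, 76.5 and 72.7 CPM in flox and 185, 177 and 187 CPM in KO libraries (log2 fold change 1.16 ± 0.24, edgeR adjusted p = 0.00523). The KO libraries of Ly6a were the closest set of any member, with a coefficient of variation of 2.85%. Endothelial markers, of a cell type that expresses both genes, summed to between 464 and 721 CPM in flox and between 1001 and 1571 CPM in KO libraries. The part of T cells and endothelium in these differences was not tested. Pdgfrb, Dpp4, Thy1, Cd34 and Ly6a kept the call in each of the 19 alternatives that used the same limits.

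**Figure D2:**
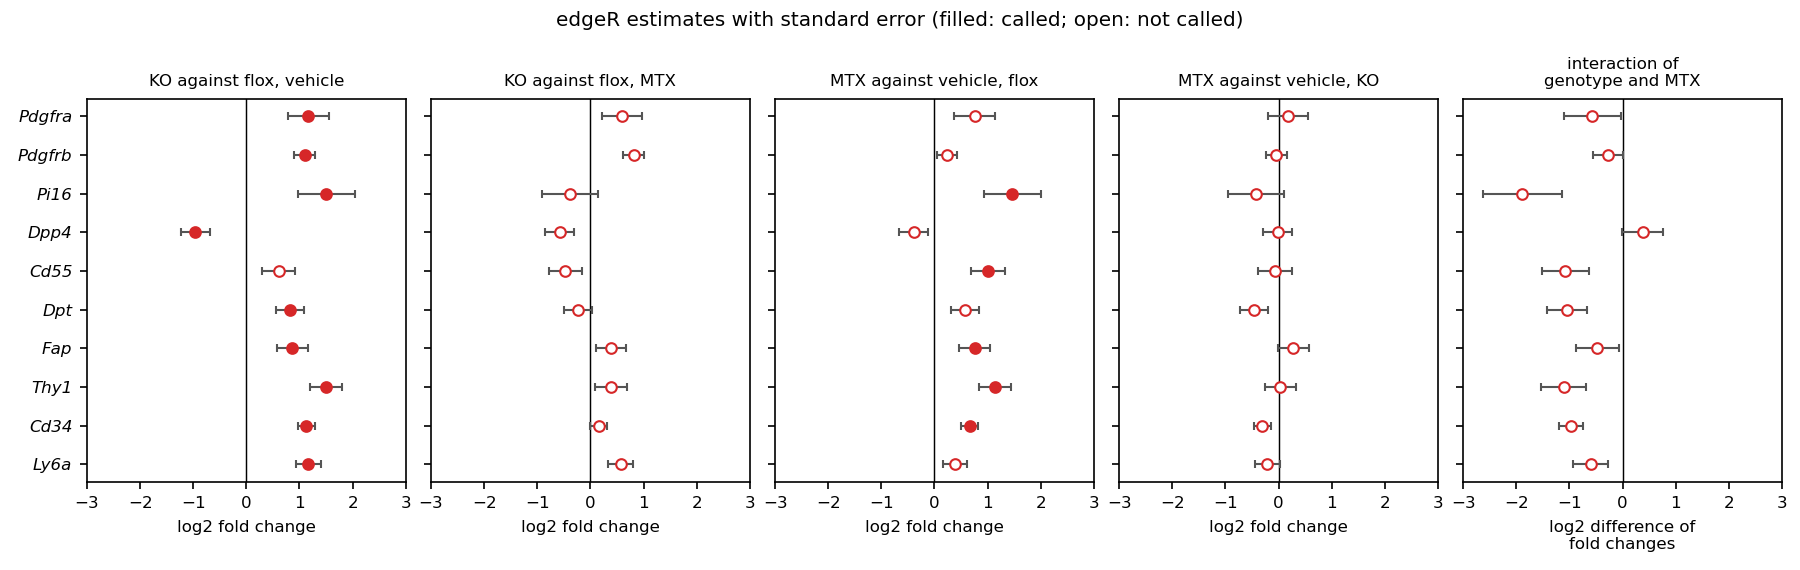
The log2 fold change with its standard error from edgeR for each gene in the 4 comparisons, and the interaction of genotype and MTX (log2 difference of the MTX effect, KO minus flox). Filled points were called: 9 in the KO against flox comparison under vehicle, 5 under MTX against vehicle in flox mice and none in the others.

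Other genes of the stromal lineage were higher in KO mice too. Among 15 pan-fibroblast genes, collagens and proteoglycans that all fibroblasts make, 12 were called higher and none lower, with a median log2 fold change of 1.71. Lum, a collagen-binding proteoglycan, had 33.4, 31.4 and 72.2 CPM in flox and 245, 235 and 306 CPM in KO libraries (log2 fold change 2.52, edgeR adjusted p = 0.00323). Pcolce, the enhancer of procollagen processing, rose by 2.08 (edgeR adjusted p = 0.00306). Of 9 genes of activated fibroblasts 4 were called higher, led by Timp1, an inhibitor of metalloproteinases, with 2.56, 3.78 and 6.14 CPM in flox and 37.7, 38.1 and 120.3 CPM in KO libraries (log2 fold change 3.98, edgeR adjusted p = 0.0049), and by Postn, the matrix protein periostin (log2 fold change 2.10, edgeR adjusted p = 0.00413).

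Of 20 further genes of interstitial progenitors 9 were called higher and 2 lower, with a median log2 fold change of 0.79. The largest changes were those of Mfap5, a microfibril protein, with 19.6, 16.4 and 43.6 CPM in flox and 140.3, 113 and 231 CPM in KO libraries (log2 fold change 2.61, edgeR adjusted p = 0.00281), and of Cd248, the surface glycoprotein endosialin (log2 fold change 2.00, edgeR adjusted p = 0.00329). The 2 that fell were Efhd1, a calcium-binding protein of mitochondria (14 CPM in flox and 5.57 CPM in KO libraries), and Bmp7, a growth factor (4.57 and 2.11 CPM). Of 8 tested genes of committed preadipocytes 5 were called higher and none lower (median 1.00), among them Cxcl14, a chemokine, with a log2 fold change of 2.83 (edgeR adjusted p = 0.0059), and Icam1, an adhesion molecule, with 1.59 (edgeR adjusted p = 0.0049). Dlk1 did not pass the filter.

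Of 6 genes of F3-positive stromal cells, a population described as restraining adipogenesis, 3 were called higher, led by Cygb (log2 fold change 1.54, edgeR adjusted p = 0.00864) and Fmo2 (1.30, edgeR adjusted p = 0.00297). Of 11 transcription factors of progenitors 6 were called higher and 1 lower. Prrx1, a homeobox factor of mesenchyme, rose by 1.76 (edgeR adjusted p = 0.00647), whereas Osr2 fell by 2.00 on the log2 scale (edgeR adjusted p = 0.0157), from 2.04, 5.47 and 3.69 CPM in flox to 1.41, 1.02 and 0.375 CPM in KO libraries. Of 12 mural cell genes 2 were called higher, with a median of 0.35. The 2 were Ndufa4l2 (log2 fold change 1.16, edgeR adjusted p = 0.00945) and Des, the intermediate filament desmin (0.64, edgeR adjusted p = 0.00879). Beside these lists, 12 of 12 macrophage markers were called higher (median 2.74), 4 of 12 adipocyte markers lower (median -0.83), 6 of 6 genes of dividing cells higher, 1 of 10 mesothelial markers higher and 2 lower, and 0 of 6 B cell markers in either direction, 0 of which had an unadjusted p under 0.05 in edgeR. Of the epididymal genes, 8 of 11 tested were called lower.

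**Figure D3:**
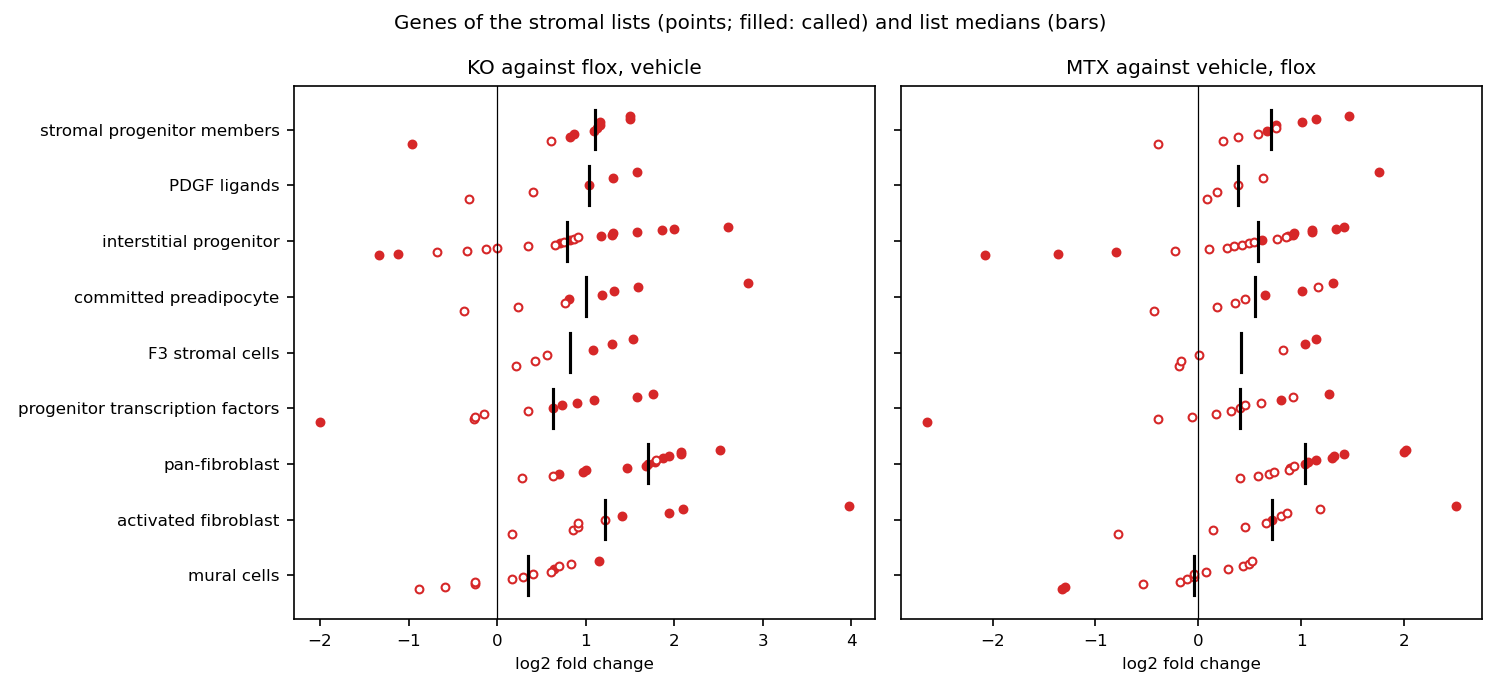
The log2 fold change of each tested gene of the progenitor set and of 8 stromal lists, for KO against flox under vehicle (left) and MTX against vehicle in flox mice (right). Filled points were called and black bars are list medians, which for pan-fibroblast genes were 1.71 and 1.04.

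In whole tissue a progenitor gene can move with the share of stromal RNA, so each member was also set against other stromal genes within a library, as its log2 CPM minus the mean log2 CPM of the 15 pan-fibroblast genes. In KO mice under vehicle this ratio had a lower mean than in flox mice for 9 of 10 members (median difference -0.49). It was lower without overlap for 3 members: Dpp4 (-3.89 ± 0.35 in KO and -1.36 ± 0.82 in flox libraries, SD, n = 3), Cd55 (-3.27 ± 0.43 and -2.41 ± 0.23) and Dpt (0.20 ± 0.39 and 0.93 ± 0.61). The ratio of all genes tested was lower without overlap for 82% and higher for 1.83%, beside 3 of 10 and 0 of 10 members. Thy1 had nearly the same ratio in both groups, with -3.10 ± 0.17 in KO and -3.04 ± 0.03 in flox libraries, and Pi16 had the only higher mean, with -2.33 ± 0.25 and -2.54 ± 0.73. The exact permutation test, two-sided, gave 0.1 for Dpp4, Cd55 and Dpt, the smallest p possible, and 0.2 to 1 for the others.

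**Figure D4:**
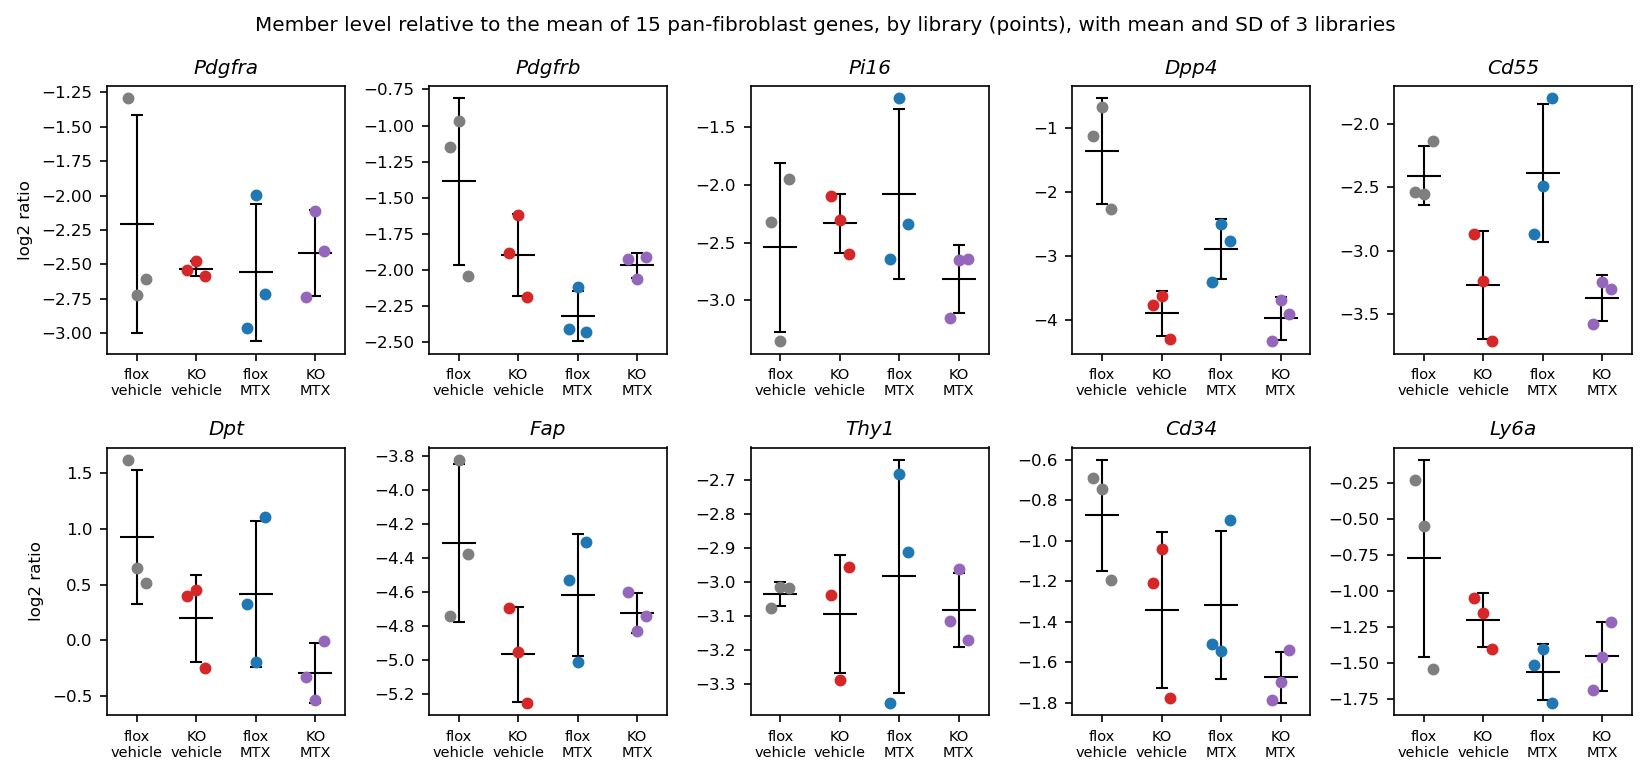
Log2 ratio of each progenitor gene to the mean of 15 pan-fibroblast genes in the 4 groups (points, libraries; bars, mean and SD of 3 libraries; axes do not start at 0). The ratios of Dpp4 and Cd55 lie lower without overlap in KO than in flox libraries under both treatments, as for 82% (vehicle) and 34.1% (MTX) of all genes tested. The mean ratio of Thy1 under vehicle is -3.10 in KO and -3.04 in flox libraries.

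The second comparison asked whether MTX changed these genes in flox mice. RNA of 5 of the 10 genes was called higher after MTX, by 1.59-fold (Cd34) to 2.75-fold (Pi16), and none lower. Over all genes tested 24.2% were called, 8.09% higher and 16.1% lower. The libraries did not overlap for 4 of the 5, Cd55, Fap, Thy1 and Cd34, where 10.9% of all genes tested were higher and 17.5% lower without overlap. This comparison shares the flox vehicle libraries with the first, so the 2 sets of values are not independent of each other. It depends on those libraries: without flox vehicle replicate 3, no member was called in edgeR (11.7% of all genes were), the 5 log2 fold changes lay between 0.58 and 1.07, and Cd34 had the lowest adjusted p, 0.0762, with a fold under the limit. Without flox vehicle replicate 1, 3 members were called beside 19.6% of all genes tested. When libraries were scaled by their size alone, 1 member was called beside 23.4% of all genes (Thy1, log2 fold change 0.98, edgeR adjusted p = 0.0633), and the median log2 fold change of all genes was -0.15 in place of 0.05.

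Thy1 had 35.9, 51.8 and 29.8 CPM in the flox MTX libraries, all above the flox vehicle libraries (log2 fold change 1.14 ± 0.30, edgeR adjusted p = 0.0248). T cell markers moved in the same direction, with 7 of 12 called higher and sums between 33.5 and 129 CPM after MTX, and their part in this value was not tested. Cd34 had 129.5, 114 and 121 CPM, a narrow range above the flox vehicle libraries (log2 fold change 0.66 ± 0.16, edgeR adjusted p = 0.0173). Of 12 endothelial markers, edgeR called 0 and gave 0 an unadjusted p under 0.05, and 10 had a positive log2 fold change. Their part in the value of Cd34 was not tested. Cd55 had 50.4, 59.4 and 64.7 CPM, its highest mean of the 4 groups (log2 fold change 1.01 ± 0.32, edgeR adjusted p = 0.0491). Fap had 15.9, 10.2 and 11.3 CPM, and flox MTX replicate 2 lay barely above flox vehicle replicate 4. Its log2 fold change was 0.76 ± 0.29 (edgeR adjusted p = 0.0896), and it lost the call in 13 of 19 alternatives.

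Pi16 had 59.0, 140.3 and 44.3 CPM in the flox MTX libraries, and the groups overlapped. Replicate 2 was the highest of all 12 libraries. The log2 fold change of Pi16 was 1.46 ± 0.53 (edgeR adjusted p = 0.0778), and 0.82 (edgeR adjusted p = 0.252) without flox MTX replicate 2. That library had the highest sums of T cell (129 CPM) and B cell markers (307 CPM), followed by KO MTX replicate 3 (113 and 262 CPM). The part of these cells in the value of Pi16 was not tested. Pdgfra, with 47.3, 83.4 and 34.0 CPM, was highest of this group in flox MTX replicate 2 and overlapped with flox vehicle (log2 fold change 0.75 ± 0.38, edgeR adjusted p = 0.188). Pdgfrb (69.5, 76.9 and 41.6 CPM) and Ly6a (129, 126 and 65.5 CPM) were each lowest in flox MTX replicate 4, and their log2 fold changes of 0.24 and 0.39 were not called (edgeR adjusted p = 0.419 and 0.267). Dpt had 462, 291 and 485 CPM (log2 fold change 0.58, edgeR adjusted p = 0.144) and Dpp4 34.7, 58.8 and 33.1 CPM (-0.39, edgeR adjusted p = 0.333). Dpp4 was the member with a negative value here as in the first comparison.

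Among the related lists after MTX in flox mice, 9 of 15 pan-fibroblast genes were called higher (median 1.04), 8 of 20 interstitial progenitor genes higher and 3 lower (median 0.58), 3 of 8 committed preadipocyte genes higher (median 0.56), and 2 of 6 genes of F3-positive cells higher. Of the PDGF genes only Pdgfrl was called, and Pdgfb had 30.6, 31.0 and 19.9 CPM. Of the transcription factors 2 of 11 were called higher and 1 lower, of activated fibroblast genes 2 of 9 higher, and of mural cell genes 2 of 12 lower. Macrophage markers were called higher in 11 of 12 cases and summed to between 842 and 5630 CPM, against 624 to 1167 CPM under vehicle. Mesothelial markers were called higher in 7 of 10 cases and lower in 2, B cell markers higher in 2 of 6, genes of dividing cells higher in 3 of 6 and adipocyte markers in 0 of 12, of which 0 had an unadjusted p under 0.05 in edgeR. The part of these cell types in the members' values was not tested. The ratio to the pan-fibroblast mean was lower for 7 of 10 members, without overlap for Dpp4 (difference -1.53) and Pdgfrb (-0.93), where 42.8% of all genes tested were lower and 0.278% higher without overlap.

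The third comparison asked whether MTX changed the genes in KO mice. None of the 10 was called in edgeR, none had an unadjusted p below 0.05, and DESeq2 called 0. The share called over all genes tested was 0% in edgeR and 1.5% in DESeq2. The log2 fold changes lay between -0.46 (Dpt) and 0.28 (Fap), and the 95% intervals lay within 1 of 0 on the log2 scale for 7 members, and reached further for Pi16 (-1.57 to 0.72), Dpt (-1.04 to 0.11) and Pdgfra (-0.65 to 1.01). For Pdgfrb the values were 113, 115 and 104 CPM after MTX, nearly those under vehicle (log2 fold change -0.04, interval -0.47 to 0.39). For Dpp4 they were 21.3, 37.4 and 25.9 CPM (log2 fold change -0.01, interval -0.61 to 0.58). Thy1 had 49.5, 61.5 and 43.1 CPM and Fap 17.7, 16.8 and 14.5 CPM.

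Pi16, Dpt and Ly6a were lower without overlap in the KO MTX libraries, with 48.4, 76.3 and 62.5 CPM for Pi16, 342, 329.8 and 388 CPM for Dpt, and 133, 175 and 168 CPM for Ly6a. They are 3 of 10 members, where 9.55% of all genes tested were lower and 11.1% higher without overlap. Cd34 had 125, 148 and 134 CPM and overlapped with KO vehicle by 1 library (log2 fold change -0.31 ± 0.16, edgeR adjusted p = 0.672). Pdgfra had 64.5, 111 and 73.8 CPM, and KO MTX replicate 3 was the highest of the 12 libraries. Cd55 had 35.8, 50.6 and 39.5 CPM. The ratio to the pan-fibroblast mean was lower for 7 of 10 members, and without overlap only for Pi16 (difference -0.48), where 5.95% of all genes tested were lower and 8.68% higher without overlap.

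The fourth comparison set KO against flox mice that received MTX. None of the 10 members was called in edgeR, 2 had an unadjusted p below 0.05 (Pdgfrb and Ly6a), and DESeq2 called 1, Pdgfrb. Over all genes tested edgeR called 0%, with a smallest adjusted p of 0.104 and 4576 genes at an unadjusted p below 0.05, and DESeq2 called 14.8%. Pdgfrb came close to this bound: its 3 KO libraries all lay above the 3 flox libraries, by a log2 fold change of 0.82 ± 0.20 with an edgeR adjusted p of 0.104. Ly6a did not overlap either, with 0.57 ± 0.23 (edgeR adjusted p = 0.172). These 2 of 10 stand beside 14.7% of all genes tested that were higher and 12.1% that were lower without overlap. Of the others, Pdgfra had a log2 fold change of 0.59, Thy1 and Fap 0.39 each, Cd34 0.16, Dpt -0.23, Pi16 -0.38, Cd55 -0.47 and Dpp4 -0.58, with edgeR adjusted p between 0.215 and 0.683.

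These values rest in part on flox MTX replicate 2. Without it, Pdgfrb (0.99, edgeR adjusted p = 0.0278), Pdgfra (1.03, edgeR adjusted p = 0.0888) and Ly6a (0.70, edgeR adjusted p = 0.0897) were called, beside 20.8% of all genes, and the log2 fold change of Pi16 was 0.27 in place of -0.38. Without flox vehicle replicate 3, a library of neither group, 1 member was called (Pdgfrb, 0.82, edgeR adjusted p = 0.0976) beside 5.4% of all genes. Relative to the pan-fibroblast mean, Pdgfrb was higher in KO MTX than in flox MTX libraries without overlap (difference 0.35), and Dpp4 (-1.08) and Cd55 (-0.99) were lower, where 4.11% of all genes tested were higher and 34.1% lower. Dpp4 and Cd55 were lower against fibroblast genes without overlap in KO mice under both treatments. So were 82% of all genes tested under vehicle and 34.1% under MTX. The epididymal genes summed to 449, 5.45 and 20.4 CPM in flox MTX replicates 1, 2 and 4 and to at most 14.1 CPM in the KO MTX libraries. Their part in these differences was not tested.

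Whether the effect of MTX differed between the genotypes was tested as the interaction of both. The log2 difference (KO minus flox) was negative for 9 of the 10 members and for 10016 of the 18702 genes tested. It was negative for 15 of 15 pan-fibroblast genes and positive for 10 of 10 testis germ cell genes. No member was called in edgeR, against 0.989% of all genes tested, 0.898% higher and 0.0909% lower. An unadjusted p below 0.05 was reached by 5 members and by 2811 of the 18702 genes tested, and DESeq2 called 1, Cd34, and 6.67% of all genes. Cd34 had the lowest p, with a log2 difference of -0.97 ± 0.22 and an edgeR adjusted p of 0.101, just above the limit. For Pi16 the difference was -1.89 ± 0.75 (edgeR adjusted p = 0.272), for Thy1 -1.11 ± 0.42 (0.256), for Cd55 -1.08 ± 0.45 (0.294) and for Dpt -1.05 ± 0.37 (0.232). Without flox vehicle replicate 4, 4 members and 7.07% of all genes were called in edgeR: Cd55 (-1.67, adjusted p = 0.0204), Cd34 (-1.14, adjusted p = 0.0278), Pi16 (-2.71, adjusted p = 0.0511) and Thy1 (-1.51, adjusted p = 0.0536). The flox vehicle libraries enter this test as well. Of the related stromal lists, Igfbp6, an IGF-binding protein of interstitial progenitors (-1.78 ± 0.39, edgeR adjusted p = 0.097), and Fmo2 were called lower.

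As profiles over the 12 libraries, standardised to mean 0 and SD 1 for each gene, the members fell close to different neighbours. Likeness is given as the root mean square difference between 2 profiles, in SD, and is a description over libraries that share their groups. Nearest to Pdgfra among all tested genes were Antxr1 (0.24), Stac2 (0.25) and Klrc1 (0.25), nearest to Pdgfrb were Dgkz (0.21), Acvrl1 (0.21) and Rasa4 (0.22), and nearest to Pi16 were Sfrp2 (0.30), Alox5 (0.31) and Pdgfrl (0.32). Among the members themselves, Pdgfrb and Ly6a were the most alike (0.35), followed by Pi16 and Thy1 (0.49), and Pdgfra was nearest to Thy1 (0.55). Dpp4 was far from all of them, its nearest being Cd55 at 1.58.

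Genes on the opposite strand overlap exons of 5 members: Pdgfra by 456 and 166 bases, Dpp4 by 232, Pi16 by 222, Cd34 by 148 and Cd55 by 102. The strand setting of the counting is not given in the sources used here, so reads of these stretches cannot be told apart.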

How the data were processed

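RNA of eWAT was sequenced in 12 libraries, 3 per group. The authors deposited whole read counts per Ensembl gene, without normalization; per the labels, reads were trimmed with Trimmomatic 0.36, aligned to GRCm38 with STAR 2.5.2b and counted with featureCounts of Subread 1.5.2. The methods describe ribosomal RNA depletion and the labels polyA RNA, and which applies is not known here. Genes without a symbol held 0.0688% of the counts.

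The test of the counts was that of edgeR 4.0.16 in R 4.3.3 (TMM, filterByExpr by group, 1 coefficient per group, glmQLFit and the quasi-likelihood F-test) over 18702 genes and all 12 libraries, with 8 residual degrees of freedom and Benjamini-Hochberg adjustment over all genes tested. Intervals are 95%, from the log2 fold change, its SE and the t distribution with the 11.1 total degrees of freedom of the same test. Differences of mean log2-CPM (prior count 2) had an exact permutation test, two-sided. On simulated counts for KO against flox under vehicle, with 200 of 18702 genes changed 4-fold, 159 were called, as were 15 unchanged genes. In the data 31.7% of genes were called in this comparison, and every called member changed by less than 4-fold. The simulation therefore does not give the share recovered or falsely called at the size of the members' changes. Within-group pairs of libraries were checked for duplicates and none was found.

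Named genes were the 10 members, the PDGF genes, 2 called genes per stromal list (largest absolute change), the 3 nearest profiles of Pdgfra, Pdgfrb and Pi16, and Crisp1 among epididymal genes. Efhd1, Bmp7, Igfbp6, Dlk1 and Cd55b were named after their values were seen. The members and lists were chosen with earlier results of these data known. The alternatives comprised RLE factors, DESeq2 1.42.0, library size alone, other filters and limits, the replicate number as a block, 6 libraries alone, and each library left out. Positions and 3′ UTRs are from GENCODE M21, and microRNAs and promoters from RefSeq.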

Additional observations from a re-analysis of the deposited data

Results flagged for a closer look

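The effect of MTX on Fmo2, a flavin monooxygenase gene of F3-positive stromal cells, differed between the genotypes by -1.43 ± 0.28 (SE) on the log2 scale in edgeR's interaction test (adjusted p = 0.083). In flox mice Fmo2 had 44.1, 47.3 and 59.6 CPM under vehicle and 102, 145 and 86.2 CPM after MTX, without overlap. In KO mice it had 112, 145 and 115 CPM under vehicle and 99.9, 109 and 95.8 CPM after MTX.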

How the results depend on the processing

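With DESeq2, no filter on low counts, or at least 10 counts in every library, 1 member (Pdgfrb) in place of 0 was called for KO against flox under MTX, with adjusted p of 0.00577, 0.0811 and 0.0828, beside 14.8%, 2.53% and 10.6% of all genes. For the interaction, DESeq2 and no filter called 1 (Cd34) in place of 0, with adjusted p of 0.00396 and 0.0939, beside 6.67% and 1.36% of all genes. For MTX against vehicle in flox mice the count of 5 became 1 with library size as the only scaling (23.4% of all genes), 3 with at least 10 counts in every library (15.6%), 1 with the 6 libraries alone (12.2%) and 0 with a log2 fold change of at least 1.5 (14.9%). That limit left 2 of the 9 called for KO against flox under vehicle, beside 16.2% of all genes tested. With library size as the only scaling, the number of members without overlap went from 2 to 4 for KO against flox under MTX and from 4 to 1 for MTX in flox mice, an alternative chosen after seeing the data. The share of all genes without overlap is not given for this scaling. The median log2 fold change of all genes moved too, from -0.05 to 0.12 and from 0.05 to -0.15 in these comparisons. Where no cause is given, the cause was not tested.

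With each library left out in turn, the number of members called ranged from 6 to 10 for KO against flox under vehicle, 0 to 3 under MTX, 0 to 7 for MTX in flox mice, 0 in KO mice and 0 to 4 for the interaction. The share called over all genes ranged from 23.7% to 35%, 0% to 20.8%, 11.7% to 30.9%, 0% to 1.1% and 0.0256% to 7.07%. The number of members with a lower ratio to the pan-fibroblast mean ranged from 8 to 10, 6 to 8, 7 to 8 and 5 to 9 in the same 4 comparisons.

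No pairing of the libraries by replicate number was seen: residual correlations of 12 same-numbered pairs had a median of 0.035 (3 above 0.1), against 0.011 in 42 other pairs. The same-numbered pairs ran from -0.27 to 0.25, and with 3 libraries per group this check cannot exclude a pairing. With the replicate number as a block, 7 members were called for KO against flox under vehicle (27.2% of all genes; Pdgfra and Pi16 lost the call) and 3 for MTX in flox mice (14.8%; Pi16 and Fap lost it), and 4 values near 0 changed sign: Dpt for KO against flox under MTX (4.07e-05), and in KO mice after MTX Pdgfrb (0.0518), Dpp4 (0.021) and Thy1 (-0.0536).

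Leaving out 1 library changed the sign of 12 values. In KO mice after MTX these were among Cd55 (range -0.221 to 0.0686), Thy1 (-0.114 to 0.248), Pdgfrb (-0.114 to 0.0542), Dpp4 (-0.269 to 0.155) and Pdgfra (-0.0802 to 0.336). For KO against flox under MTX it was Pi16 (-0.669 to 0.274). Of the other values of single members, 548 kept direction and call with 1 library left out and 317 under the other alternatives, while 26 and 14 lost the call and 14 and 5 gained it.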
